A study of Mus musculus with 10 samples.

Results

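The genes described here build 2 cofactors of mitochondria, coenzyme Q (ubiquinone) and iron-sulfur clusters. They were chosen by name, as 13 genes of ubiquinone synthesis and binding and 16 genes of mitochondrial iron-sulfur cluster assembly. A gene was kept where it reached 1 CPM (reads scaled to 1000000 per library) in 5 or more of 10 libraries. All 29 passed, and they are 29 of the 12350 genes tested and of 45706 in the deposited table.

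The libraries were made from poly(A) RNA of mouse left ventricle after TAC (transverse aortic constriction), an operation that narrows the aorta and makes the ventricle pump against a higher pressure. The 10 libraries form 2 groups of 5. The placebo group had TAC and placebo, with the treatment labelled as vehicle, and the osimertinib group had TAC and osimertinib, a tyrosine kinase inhibitor of mutant epidermal growth factor receptors given in lung cancer. The study asked about the cardiac toxicity of this drug. Both groups carry the operation, so each comparison is of the drug in loaded hearts. The sources used here do not give strain, age, sex, dose or duration. Separate animals are not named in the labels either, and p-values here therefore speak only of the spread between the libraries sequenced.

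Ubiquinone is a lipid that carries electrons within the inner mitochondrial membrane from several dehydrogenases to complex III. Its ring is joined to a long isoprenoid tail and then modified step by step by enzymes held together in the assembly called complex Q. Iron-sulfur clusters are built on a scaffold protein from iron and from sulfur taken from cysteine, handed on by a chaperone, and fitted by late-acting factors into proteins such as the subunits of complexes I, II and III. Heart muscle is dense in mitochondria, and inherited defects of either pathway can cause cardiomyopathy.

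The libraries held 15863265 to 21309296 reads, as estimated from the steps between low values. Mitochondrially encoded genes took 31.75% to 48% of the CPM in 9 libraries and 63.35% in placebo library 5, which lowers the CPM of every other gene there. Values below are therefore rescaled CPM, the deposited CPM divided by the library's median ratio to a mean library, 0.4545 for placebo library 5 and up to 1.344 elsewhere. The median log2 fold change over all genes was 0.27 in the deposited CPM and 0.01 after rescaling. Atrial transcripts were present in 6 of the libraries labelled left ventricle, placebo 1, 2 and 5 and osimertinib 1, 2 and 4, where the atrial myosin light chain Myl7 was at 55.5 rescaled CPM or more. It was at 0.862 or less in the other 4, and Bmp10, a further atrial marker, was at 0 in all 10.

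Most members had a higher mean in osimertinib in both pathways, but 19 of the 29 did not pass the test across all genes, and most that passed still overlapped between the groups. Limma, a linear model fitted to log2(rescaled CPM + 0.5) of all 12350 genes with Benjamini-Hochberg adjustment, called 10 of the 29 higher at an adjusted p under 0.05 and 0 lower. Over all genes 10.4% were called higher and 10.5% lower. The ubiquinone group had 3 of 13 called (Coq3, Coq8a and Coq9) and the iron-sulfur group 7 of 16 (Nfs1, Iscu, Fdx1, Hscb, Glrx5, Isca1 and Nubpl). In each of these 10, 5 of 5 osimertinib libraries exceeded the placebo mean. A call of higher makes that likely by itself, and members that were not called, such as Coq5 and Coq7, showed it too. These calls also rested on the scaling and the filter. In CPM computed without mitochondrial and haemoglobin genes limma called 4 members, Coq9, Nfs1, Iscu and Isca1, against 4.16% of all genes higher, and the other 6 had adjusted p values of 0.0502 to 0.0697. With no filter on low values 1 member was called, Iscu, against 2.52% of all genes higher, and the other 9 had adjusted p values of 0.0504 to 0.0966. The median log2 fold change was 0.72 for ubiquinone and 0.67 for iron-sulfur genes, and 27 of the 29 lay above 0. In the deposited CPM the medians were 0.97 and 0.94, and 13 members were called, 7 and 6, against 6.62% of all genes called higher on that scale. In bulk tissue fewer cells of a type and less RNA per cell cannot be told apart, which holds for every level below.

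**Figure D1:**
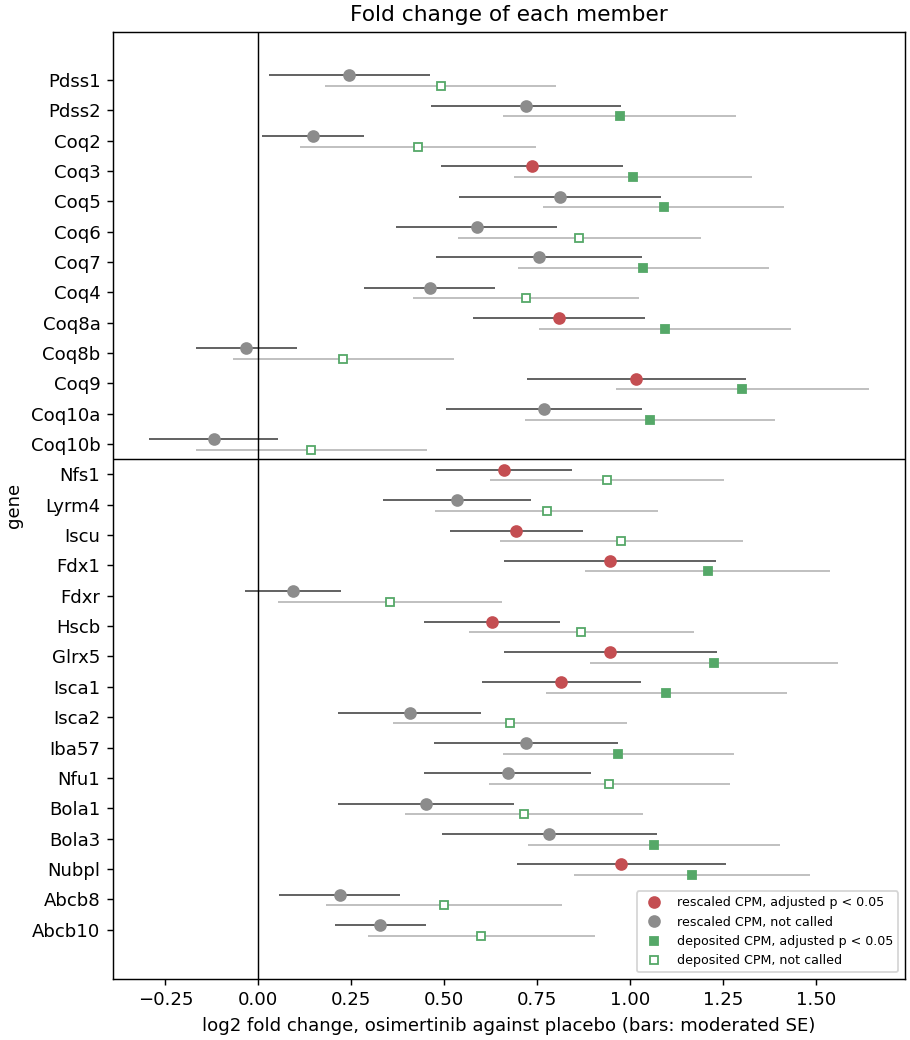
Log2 fold change of each of the 29 members (x axis, osimertinib against placebo, bars are moderated standard errors), with circles for rescaled CPM and squares for deposited CPM and the ubiquinone genes above the line. Filled red circles are the 10 members called after rescaling, and the squares lie to the right of the circles for every member.

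Within each group the libraries differed widely and the 2 pathways moved together from library to library. The median centred level of the ubiquinone genes, in log2 units around each gene's mean, was -0.86, -0.40, 0.11, 0.05 and -0.44 in placebo libraries 1 to 5 and -0.09, 0.20, 0.73, -0.01 and 0.87 in osimertinib libraries 1 to 5. The corresponding iron-sulfur medians were -0.71, -0.43, 0.05, -0.02 and -0.45, then 0.02, 0.18, 0.69, -0.05 and 0.79. Placebo libraries 3 and 4 thus stood with osimertinib libraries 1, 2 and 4, while placebo 1, 2 and 5 lay below and osimertinib 3 and 5 above them. Osimertinib 3 or 5 held the highest value of 27 of the 29 members and together they were the top pair for 25. The lowest value was in placebo 1, 2 or 5 for 25 members, placebo 1 alone for 21. For 8 members osimertinib libraries 1, 2 and 4 all lay inside the placebo range. Only 3 members had every osimertinib library above every placebo library, Nfs1, Iscu and Isca1, while 5.72% of all genes did so. Whether the pathways differed from each other was not tested.

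**Figure D2:**
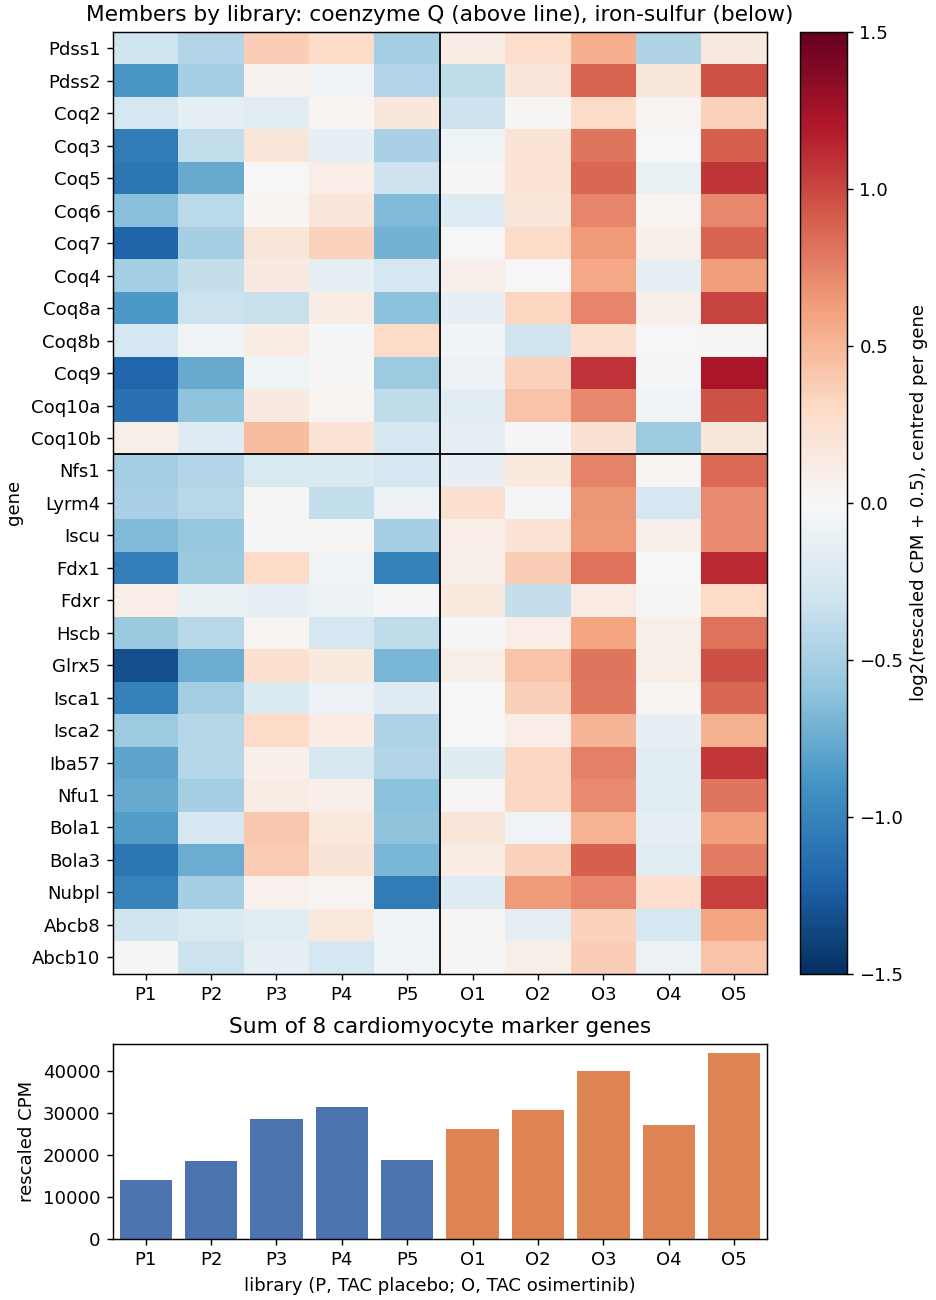
Level of each member (rows) in each library (columns; P, placebo; O, osimertinib) as log2(rescaled CPM + 0.5) around the gene's mean, with the summed level of 8 cardiomyocyte marker genes in rescaled CPM as bars below. Columns O3 and O5 are the darkest red and P1 the darkest blue for most genes, and the bars are highest in O3 and O5 and lowest in P1.

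The calls depended on single libraries. Without placebo 1, placebo 2, osimertinib 3 or osimertinib 5, limma called 0 members in either pathway and 3.13%, 2.73%, 1.76% and 2.39% of all genes higher, although 7 to 9 ubiquinone and 10 to 12 iron-sulfur genes kept an unadjusted p under 0.05. Nfs1, Iscu and Isca1 were called in the other 6 of 10 fits that left out 1 library, and their highest adjusted p values without 1 of these 4 libraries were 0.0818, 0.0718 and 0.0745. Hscb was also lost without placebo 5 (up to 0.0953). Coq8a, Coq9, Fdx1, Glrx5 and Nubpl were lost as well without placebo 5 or osimertinib 2, with adjusted p up to 0.0893, 0.0916, 0.0979, 0.0988 and 0.09. Coq3, the call nearest the threshold, was lost in 7 fits, which adds placebo 4 (up to 0.128). Without placebo 5 or osimertinib 2 the counts were 0 ubiquinone genes (9 at an unadjusted p under 0.05) and 3 or 4 iron-sulfur genes, against 8.35% and 6.89% of all genes higher. The fits without placebo 3, placebo 4, osimertinib 1 or osimertinib 4 called 8, 6, 7 and 6 ubiquinone genes and 10, 9, 9 and 12 iron-sulfur genes, while the share of all genes called higher was 12.6%, 11.1%, 11.6% and 11%. The medians kept their sign in all 10 fits, between 0.55 and 0.85 for ubiquinone and between 0.54 and 0.75 for iron-sulfur genes. All 13 calls of the deposited CPM were lost without osimertinib 3 or 5, and without placebo 5 the deposited CPM called 1 ubiquinone and 2 iron-sulfur genes, against 5.01% of all genes higher.

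RefSeq promoter windows of GRCm38.p6, each 250 bases before to 50 after a transcript start, were found for 24 of the 29 members, 29 windows in all. They were searched on both strands for the letters of 4 motifs known from genes of mitochondria. GCGCANGCG, for NRF1, was in 5 of the 29 member windows (17.2%) and in 6.25% of all 32851 windows. CCGGAAG, for ETS factors, was in 7 (24.1%) and in 8.86% of all. AAGGTCA, for estrogen-related receptors, was in 3 (10.3%) against 4.72%, and AAGATGGCG, for YY1, in 2 (6.9%) against 1.4%. The ETS and YY1 letters can overlap by AAG. A match is a run of letters only, and no binding was measured here.

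The following 250 bases before the start, read 5′ to 3′ along the gene's strand, belong to members whose groups did not overlap (Nfs1, Isca1) and to the pairs of relatives compared below (Isca1 and Isca2, Coq10a and Coq10b). No window was found for Iscu, whose groups did not overlap either. Capitals mark motif matches. The windows are chr2:156144187-156144436 on the minus strand for Nfs1, chr13:59769790-59770039 on the minus strand for Isca1, chr12:84773020-84773269 on the plus strand for Isca2, chr10:128370038-128370287 on the minus strand for Coq10a and chr1:55052520-55052769 on the plus strand for Coq10b.
Nfs1: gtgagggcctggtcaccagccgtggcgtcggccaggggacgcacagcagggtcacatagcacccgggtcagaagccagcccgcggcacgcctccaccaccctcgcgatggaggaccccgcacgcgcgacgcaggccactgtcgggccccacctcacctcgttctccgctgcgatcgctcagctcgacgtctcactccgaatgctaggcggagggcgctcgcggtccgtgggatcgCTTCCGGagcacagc
Isca1: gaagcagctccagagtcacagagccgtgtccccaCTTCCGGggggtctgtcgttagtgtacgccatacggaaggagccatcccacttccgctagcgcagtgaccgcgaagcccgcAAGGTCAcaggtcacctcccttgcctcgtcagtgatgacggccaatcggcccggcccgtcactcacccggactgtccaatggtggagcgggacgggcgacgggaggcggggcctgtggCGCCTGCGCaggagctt
Isca2: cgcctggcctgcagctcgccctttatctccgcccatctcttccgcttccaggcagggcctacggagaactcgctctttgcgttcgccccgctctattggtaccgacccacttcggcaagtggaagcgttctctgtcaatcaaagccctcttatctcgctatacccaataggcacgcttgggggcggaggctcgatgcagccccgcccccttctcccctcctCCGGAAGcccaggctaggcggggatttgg
Coq10a: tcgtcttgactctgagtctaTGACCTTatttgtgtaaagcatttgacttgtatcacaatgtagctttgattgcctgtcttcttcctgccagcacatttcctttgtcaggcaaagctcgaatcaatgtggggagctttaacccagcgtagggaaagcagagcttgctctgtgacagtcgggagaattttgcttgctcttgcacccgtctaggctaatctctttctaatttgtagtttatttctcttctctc
Coq10b: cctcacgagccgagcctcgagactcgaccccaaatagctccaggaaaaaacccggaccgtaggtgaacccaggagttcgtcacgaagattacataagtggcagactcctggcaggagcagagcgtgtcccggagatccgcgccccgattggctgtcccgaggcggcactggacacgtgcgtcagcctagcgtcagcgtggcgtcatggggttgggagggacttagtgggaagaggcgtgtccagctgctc
The Isca1 window holds an ETS match, an estrogen-related receptor match and an NRF1 match, in that order toward the start. Nfs1 and Isca2 each show 1 ETS match. Coq10a has 1 estrogen-related receptor match, in a window that lies upstream of the start of the GENCODE gene, and the other Coq10a window holds none of the 4 motifs. The Coq10b stretch holds none either.

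None of the 3 genes of the isoprenoid tail and its attachment passed limma after rescaling, and 1 of them, Pdss2, had an unadjusted p under 0.05. Pdss1 and Pdss2 encode the subunits of the synthase that makes the tail. Pdss1 was at 5.21 ± 1.66 rescaled CPM in placebo and 6.20 ± 1.56 in osimertinib (SD, n = 5 each), a log2 fold change of 0.24 ± 0.22 (SE, limma adjusted p = 0.433). Pdss2 was at 4.41 ± 1.24 rescaled CPM in placebo and 7.84 ± 3.09 in osimertinib, with 0.72 ± 0.26 (adjusted p = 0.0623), and was called in the deposited CPM (0.97 ± 0.31, adjusted p = 0.0431). Coq2 is the transferase that attaches the tail to the ring. It lay between 35.2 and 56.2 rescaled CPM in all 10 libraries, with 0.15 ± 0.14 (adjusted p = 0.455). Coq2 shares 13.5% of its 31-base words with other genes, mostly Gm6728, so part of its reads are uncertain.

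Of the 4 genes that modify the ring, Coq3 passed after rescaling and Coq3, Coq5 and Coq7 in the deposited CPM. Coq3 (GRCm38 chromosome 4, 21879673 to 21912162, plus strand) is an O-methyltransferase. Its rescaled CPM were 6.54, 10.8, 16.1, 12.9 and 9.91 in placebo libraries 1 to 5 and 13.4, 16.3, 24.9, 14.2 and 26.7 in osimertinib libraries 1 to 5. Osimertinib 3 and 5 were highest, and osimertinib 1 and 4 lay below placebo 3. Coq3 had a log2 rise of 0.74 ± 0.24 (limma adjusted p = 0.0498, deposited 0.0406). Coq5 (chromosome 5, 115279666 to 115296972, plus strand), the C-methyltransferase of the ring, stood at 11.0, 14.0, 24.0, 25.6 and 19.2 in placebo and at 24.1, 27.6, 43.6, 22.0 and 50.6 in osimertinib. Here too osimertinib 1 and 4 fell inside the placebo range, and the fold change of 0.81 ± 0.27 just missed the threshold (adjusted p = 0.0516, deposited 0.0277). Coq6 and Coq7 encode ring hydroxylases. Coq6 was at 20.2 ± 5.59 rescaled CPM in placebo and 30.8 ± 8.97 in osimertinib, with 0.59 ± 0.22 (adjusted p = 0.0695). Coq7 was at 38.3 ± 16.5 rescaled CPM in placebo and 61.9 ± 16.5 in osimertinib, with 0.76 ± 0.28 (adjusted p = 0.0679, deposited 0.0465).

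Among the 4 genes that organise or regulate complex Q, Coq8a and Coq9 rose on both scales. Coq9 (chromosome 8, 94838321 to 94854895, plus strand) encodes a lipid-binding protein that presents the quinone precursor to Coq7. It had the largest log2 fold change of the 29 in the fit described. With 0.1 in place of 0.5 added before the log2, Nubpl was above it (1.149 against 1.022). Coq9 was at 43.8, 59.2, 95.5, 101 and 68.2 rescaled CPM in placebo libraries 1 to 5 and at 94.3, 127, 212, 98.9 and 235 in osimertinib libraries 1 to 5. Osimertinib 3 and 5 lay far above all other libraries, whereas osimertinib 1 and 4 lay just under placebo 4. The fitted log2 difference was 1.02 ± 0.29 (limma adjusted p = 0.0341, deposited 0.0118). Coq8a (chromosome 1, 180165238 to 180199602, minus strand), a kinase-like ATPase of complex Q, was at 98.9, 143, 143, 193 and 117 in placebo and 165, 224, 300.0, 189 and 363 in osimertinib. Its overlap was limited to placebo 4, which lay above osimertinib 1 and 4. Coq8a rose by 0.81 ± 0.23 (adjusted p = 0.033, deposited 0.0358). Coq4 encodes a protein that holds complex Q together. It was at 6.32 ± 1.18 rescaled CPM in placebo and 9.00 ± 2.34 in osimertinib, with 0.46 ± 0.18 (adjusted p = 0.0765), and 28.7% of its 31-base words also occur in other genes, mainly Trub2.

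The relatives Coq8b and Coq10b were the only members below 0 after rescaling. Coq8b (chromosome 7, 27233023 to 27257950, plus strand), the second kinase-like gene, read 5.00, 5.91, 6.59, 6.03 and 7.54 rescaled CPM in placebo and 5.90, 4.86, 7.33, 6.06 and 6.16 in osimertinib. The groups overlapped throughout, with the highest value in placebo 5 and the lowest in osimertinib 2. The log2 fold change of Coq8b was -0.03 ± 0.13 (adjusted p = 0.883), and 0.23 ± 0.30 in the deposited CPM. Coq10a and Coq10b encode START-domain proteins that bind ubiquinone and are needed for its use in respiration. Coq10a (chromosome 10, 128363100 to 128368997, minus strand) was at 41.6, 59.7, 99.8, 93.7 and 69.5 in placebo and 81.6, 123, 150.5, 88.3 and 177 in osimertinib, with osimertinib 1 and 4 below placebo 3 and 4. It was at 0.77 ± 0.26 (adjusted p = 0.0556) and passed in the deposited CPM (0.0408). Coq10b (chromosome 1, 55052770 to 55072702, plus strand) was at 9.82, 8.02, 12.9, 10.7 and 7.64 and 8.34, 9.12, 10.9, 6.21 and 10.5, highest in placebo 3 and lowest in osimertinib 4. It came to -0.12 ± 0.17 in log2 units (adjusted p = 0.645), and 0.14 ± 0.31 in the deposited CPM.

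Of the 5 genes listed here as the core of iron-sulfur assembly 3 rose, the desulfurase, the scaffold and the ferredoxin Fdx1. Nfs1 (chromosome 2, 156123639 to 156144186, minus strand), the desulfurase that takes sulfur from cysteine, was at 14.0, 14.9, 17.2, 17.4 and 17.0 rescaled CPM in placebo libraries 1 to 5 and 18.7, 22.6, 34.3, 20.8 and 36.9 in osimertinib libraries 1 to 5. The placebo libraries were close together and all lay under the lowest osimertinib library. Nfs1 had a log2 rise of 0.66 ± 0.18 (limma adjusted p = 0.0296), but did not pass in the deposited CPM (0.0533). Iscu (chromosome 5, 113772748 to 113778288, plus strand), the scaffold on which the cluster forms, was at 35.4, 37.8, 55.4, 56.6 and 39.1 in placebo and 60.2, 64.7, 88.0, 58.9 and 92.0 in osimertinib. Its groups were split by a narrow gap between placebo 4 and osimertinib 4. Iscu had the lowest p of the members, at 0.69 ± 0.18 (adjusted p = 0.0246, deposited 0.0528), and 18.5% of its 31-base words occur in other genes, mostly Gm16437. Fdx1 (chromosome 9, 51943306 to 51963556, minus strand), a ferredoxin that carries electrons to mitochondrial enzymes, was at 6.17, 8.86, 16.3, 12.8 and 6.30 in placebo and 13.9, 17.3, 23.7, 13.1 and 29.2 in osimertinib. Osimertinib 1 and 4 lay below placebo 3, and Fdx1 rose by 0.95 ± 0.29 (adjusted p = 0.0379, deposited 0.0162). A further ferredoxin, Fdx2, is counted with the other assembly genes below. Fdx2 was at 0.38 ± 0.19 (limma adjusted p = 0.17) and was called in 0 of 10 fits without 1 library.

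The partners of these genes in the core did not pass. Fdxr (chromosome 11, 115268024 to 115277050, minus strand), the reductase that supplies ferredoxin with electrons, had 7.85, 6.71, 6.64, 6.88 and 7.23 rescaled CPM in placebo and 8.16, 5.57, 8.00, 7.41 and 9.08 in osimertinib. The groups overlapped, with the lowest value in osimertinib 2 and placebo 1 above osimertinib 4. Its log2 fold change of 0.09 ± 0.13 (adjusted p = 0.626) was the lowest of the iron-sulfur genes. Lyrm4, the small protein that stabilises Nfs1, was at 2.89 ± 0.531 rescaled CPM in placebo and 4.53 ± 1.43 in osimertinib, with 0.54 ± 0.20 (adjusted p = 0.0714).

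Both genes of the transfer step rose after rescaling. Hscb (chromosome 5, 110829070 to 110839777, minus strand), the co-chaperone that binds the loaded scaffold, was at 2.66, 3.00, 4.31, 3.41 and 3.10 in placebo and 4.11, 4.51, 6.52, 4.46 and 7.73 in osimertinib, and 1 pair of libraries crossed, osimertinib 1 below placebo 3. It rose by 0.63 ± 0.18 (limma adjusted p = 0.0347, deposited 0.0632). Glrx5 (chromosome 12, 105032688 to 105042906, plus strand), the glutaredoxin that takes the cluster from the scaffold, was at 13.0, 19.6, 39.2, 36.6 and 20.3 in placebo and 35.3, 44.6, 58.1, 35.3 and 65.3 in osimertinib. Its placebo values split into a low set, libraries 1, 2 and 5, and a high pair, libraries 3 and 4, that reached osimertinib 1 and 4. Glrx5 rose by 0.95 ± 0.29 (adjusted p = 0.0384, deposited 0.016).

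Of 7 late-acting genes, Isca1 and Nubpl rose on both scales. Isca1 (chromosome 13, 59755409 to 59769810, minus strand), an A-type carrier needed for the larger cubane clusters, was at 25.1, 35.3, 43.7, 47.8 and 44.6 rescaled CPM in placebo libraries 1 to 5 and 50.8, 65.8, 88.7, 52.2 and 92.8 in osimertinib libraries 1 to 5. All osimertinib values were above all placebo values, the closest being placebo 4 and osimertinib 1. Isca1 rose by 0.82 ± 0.21 (limma adjusted p = 0.0255, deposited 0.0267), and 17.4% of its 31-base words occur in other genes, mostly AK157302. Nubpl (chromosome 12, 52097737 to 52312744, plus strand), an assembly factor that brings clusters to complex I, was the least abundant member, at 0.982, 1.59, 2.58, 2.56 and 0.929 and 2.09, 4.10, 4.41, 3.01 and 5.51, or between 9 and 102 estimated reads, with 1 CPM reached in 4 placebo and 5 osimertinib libraries. Osimertinib 1 lay below placebo 3 and 4, and Nubpl rose by 0.98 ± 0.28 (adjusted p = 0.0336, deposited 0.0159). Iba57, which works with Isca1 and Isca2, was at 4.02 ± 1.000 rescaled CPM in placebo and 7.26 ± 2.99 in osimertinib, with 0.72 ± 0.25 (adjusted p = 0.0544, deposited 0.0425). Nfu1, a carrier toward lipoate synthase and complexes I and II, was at 15.5 ± 4.52 rescaled CPM in placebo and 25.1 ± 7.40 in osimertinib, with 0.67 ± 0.22 (adjusted p = 0.0511).

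Isca2, Bola1 and Bola3 overlapped more widely between the groups. Isca2 (chromosome 12, 84773251 to 84775088, plus strand), the partner of Isca1, was at 8.98, 9.75, 16.3, 14.6 and 9.50 in placebo and 13.2, 14.3, 19.1, 12.1 and 19.5 in osimertinib, so that osimertinib 1, 2 and 4 lay inside the placebo range. It was at 0.41 ± 0.19 (adjusted p = 0.138). Bola3 (chromosome 6, 83349147 to 83360136, plus strand), a partner of Nfu1 in delivery, was at 24.9, 31.7, 69.6, 61.0 and 32.9 and 57.9, 68.1, 99.8, 47.5 and 91.5. Placebo 3 and 4 lay among the osimertinib values, and Bola3 was at 0.78 ± 0.29 (adjusted p = 0.0702, and 0.0408, a call, in the deposited CPM). Bola1 (chromosome 3, 96196588 to 96219709, minus strand), which binds Glrx5, was at 6.26, 9.61, 15.5, 12.9 and 7.43 and 13.2, 11.1, 16.8, 10.4 and 18.0, with 0.45 ± 0.24 (adjusted p = 0.177).

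The 2 mitochondrial ABC transporters did not pass limma on either scale, and Abcb10 had an unadjusted p under 0.05 after rescaling. Abcb8 (chromosome 5, 24393663 to 24410054, plus strand), linked to iron export from heart mitochondria, was at 26.9, 28.3, 29.8, 37.2 and 32.2 rescaled CPM in placebo and 33.4, 29.9, 42.1, 27.6 and 50.4 in osimertinib, with the lowest value in placebo 1 and osimertinib 4 next to it. The difference of Abcb8 was 0.22 ± 0.16 in log2 units (adjusted p = 0.345). Abcb10 (chromosome 8, 123952459 to 123983122, minus strand), which takes part in haem synthesis, was at 12.3, 10.0, 11.4, 10.4 and 12.1 and 12.8, 13.5, 16.4, 11.9 and 17.2. Its placebo libraries were close together and only osimertinib 4 fell among them, with 0.33 ± 0.12 (adjusted p = 0.0727).

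Per kilobase of exon, with the exons of all annotated transcripts of a gene merged into 1 length, the same 4 members stood highest in both groups. In placebo Coq10a was at 28.3 ± 9.37 rescaled CPM per kilobase (SD, n = 5), Coq8a at 26.3 ± 6.74, Coq9 at 24.1 ± 7.96 and Iscu at 20.6 ± 4.73. In osimertinib the order was Coq9 at 50.3 ± 21.5, Coq10a at 48.2 ± 15.8, Coq8a at 46.9 ± 15.5 and Iscu at 33.5 ± 7.33. Within either group these 4 differed from each other by less than the SD of the higher one. The lowest member was Nubpl, at 0.349 ± 0.164 and 0.772 ± 0.266, and Pdss2, Iba57, Coq8b and Pdss1 lay between 0.739 and 1.23 in placebo. Coq8a was far above Coq8b (1.11 ± 0.167 and 1.09 ± 0.157), and Coq10a far above Coq10b (2.05 ± 0.447 and 1.88 ± 0.389). Isca1, at 3.68 ± 0.861 and 6.56 ± 1.86, was below Isca2 at 6.42 ± 1.82 and 8.52 ± 1.87 on this scale. The merged length was 10680 bases for Isca1 and 1838 for Isca2. In rescaled CPM the order was the opposite, 39.3 and 70.0 for Isca1 against 11.8 and 15.7 for Isca2. Which of the 2 has more transcripts is therefore not settled by these values.

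The ratio of related members within a library depends on the scaling between libraries only through the pseudocount of 0.5, and 5 pairs were compared with the exact permutation test over 252 assignments of the libraries (two-sided, adjusted over the 5 pairs, smallest possible p 0.00794). The log2 ratio of Coq10a to Coq10b was 2.03, 2.82, 2.90, 3.07 and 3.10 in placebo libraries 1 to 5 and 3.22, 3.68, 3.73, 3.73 and 4.01 in osimertinib libraries 1 to 5. The groups did not overlap, and the ratio was higher by 0.89 in osimertinib (exact p = 0.00794, the smallest possible, adjusted 0.0397). Without placebo 1 (0.70), placebo 2 (0.90) or placebo 3 (0.92) the groups still did not overlap, and 2 of 126 assignments gave as large a difference, which left an exact p of 0.0159 and an adjusted p of 0.0794 in each case. The ratio of Coq8a to Coq8b was 4.35 ± 0.38 (SD, n = 5) in placebo and 5.19 ± 0.43 in osimertinib, higher by 0.84 and above the placebo mean in 5 of 5 libraries (exact p = 0.0238, adjusted 0.0595). It passed without placebo 4 (0.98, exact adjusted p = 0.0397) or osimertinib 1 (0.97, 0.0496). For Isca1 to Isca2 the ratio was 1.70 ± 0.31 and 2.11 ± 0.13, a difference of 0.41 (exact p = 0.0397, adjusted 0.0595), which passed without placebo 5 (0.53, 0.0397) or osimertinib 1 (0.46, 0.0496). Bola1 to Bola3 differed by -0.33 (exact p = 0.0476, adjusted 0.0595) and passed without osimertinib 1 (-0.39, 0.0496). In the other fits without 1 library the Coq8, Isca and Bola pairs did not pass, with exact adjusted p up to 0.0992, 0.119 and 0.139. Abcb8 to Abcb10 differed by -0.11 (exact p = 0.46). After adjustment the Coq10 pair alone passed.

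**Figure D3:**
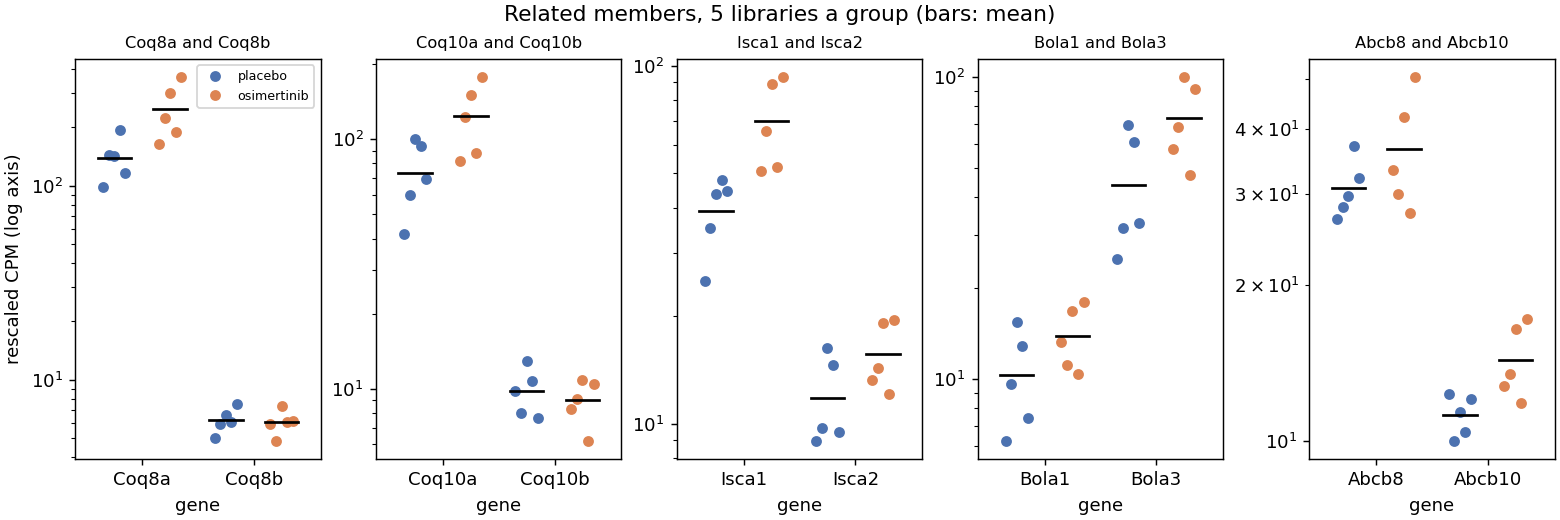
Rescaled CPM (log axes, 1 panel a pair) of the related members in each of 5 placebo and 5 osimertinib libraries, with bars at the group means. The groups of Isca1 do not overlap, those of Coq8a and Coq10a overlap in part, and those of Coq8b and Coq10b overlap throughout.

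The members' levels moved with those of cardiomyocyte marker genes. The 8 markers (Tnnt2, Tnni3, Myh6, Actc1, Ryr2, Myl2, Mybpc3 and Pln) summed to 13881, 18621, 28521, 31496 and 18764 rescaled CPM in placebo libraries 1 to 5 and to 26110, 30784, 40045, 27040 and 44209 in osimertinib libraries 1 to 5. Their order across libraries was close to that of the members, lowest in placebo 1, 2 and 5 and highest in osimertinib 3 and 5. All 8 had a log2 fold change above 0, with a median of 0.74, beside 0.72 and 0.67 for the ubiquinone and iron-sulfur genes. Limma called 2 of the 8 higher, Actc1 and Pln, against 10.4% of all genes. The 29 members summed to 502 to 941 in placebo and 865 to 1666 in osimertinib. Per 1000 CPM of the cardiomyocyte markers the members came to 36.2, 34.5, 31.3, 29.9 and 35.1 in placebo and 33.1, 35.1, 37.4, 32.9 and 37.7 in osimertinib, ranges that overlapped. With the mean log2 level of these markers as a covariate, a fit chosen after the data were seen, limma called 0 of 29 members and 0.559% of all genes higher, and 1 ubiquinone and 0 iron-sulfur genes had an unadjusted p under 0.05. The medians were then -0.03 for ubiquinone and 0.09 for iron-sulfur genes. This covariate itself differed between the groups, at 9.97 to 11.2 in placebo and 11.0 to 11.8 in osimertinib, so that drug and marker level cannot be fully told apart in that fit.

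**Figure D4:**
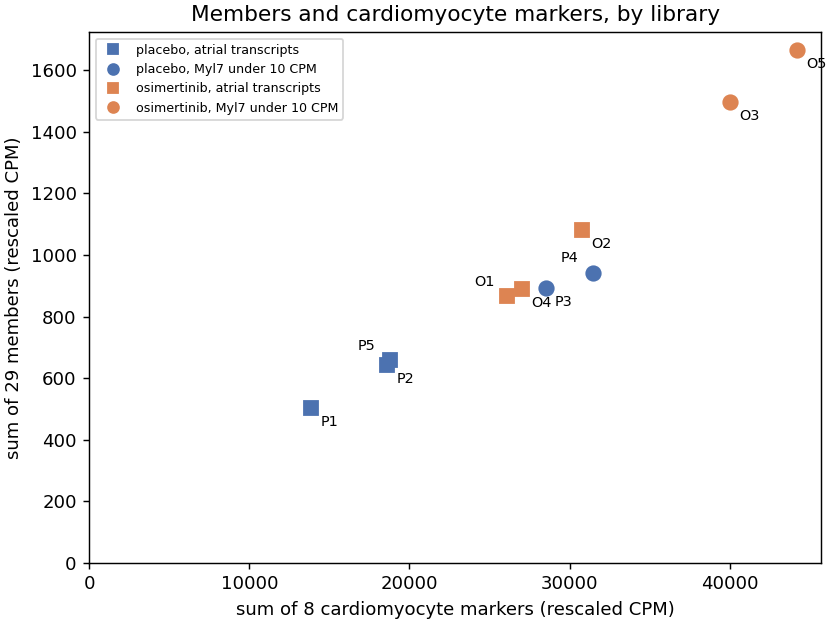
Sum of the 29 members (y axis, rescaled CPM) against the sum of 8 cardiomyocyte markers (x axis, rescaled CPM) in each library, squares for libraries with atrial transcripts and circles for those with Myl7 under 10 rescaled CPM. The libraries lie along 1 band, from P1 at 502 to O5 at 1666, and placebo P3 and P4 lie among osimertinib O1, O2 and O4.

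Atrial transcripts divided the libraries in a way that crossed the groups, and the split was made after the data were seen. Among the 6 libraries with Myl7 above 10 rescaled CPM, 3 of each group, the median difference was 0.59 for ubiquinone and 0.55 for iron-sulfur genes and 0.00167 for all genes. Among the 4 without, 2 of each group, it was 0.62, 0.69 and 0.04. Every osimertinib library was above every placebo library within both sets for 21 of the 29 members (72.4%), 9 of 13 and 12 of 16, and for 15.4% of all genes. The cardiomyocyte marker sums separated in the same way, at 13881, 18621 and 18764 in placebo against 26110, 30784 and 27040 in osimertinib with atrial transcripts, and at 28521 and 31496 against 40045 and 44209 without. With the atrial score as a covariate limma called 9 of 13 ubiquinone and 15 of 16 iron-sulfur genes higher, against 21.6% of all genes. In the fit without a covariate, limma called 2 of 8 endothelial markers lower (Tie1 and Egfl7), against 10.5% of all genes. It called 2 of 8 macrophage markers higher (Adgre1 and Lyz2), against 10.4% of all genes. The 8 fibroblast markers had adjusted limma p values of 0.0633 or more. What these cell markers contribute to the members' levels was not tested.

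Other genes of mitochondrial cluster assembly gave mixed results, with 3 of 10 higher, 0 lower and a median of 0.54, against 10.4% of all genes higher and 10.5% lower. Hspa9, the chaperone that works with Hscb, went from 96.6 ± 28.2 rescaled CPM (SD, n = 5) in placebo to 176 ± 58.6 in osimertinib, a log2 rise of 0.85 ± 0.25 (SE, limma adjusted p = 0.0362), and Ndufab1, the acyl carrier protein bound by Lyrm4, rose by 1.10 ± 0.36 (0.0476). Both were lost without placebo 1, 2 or 5 or osimertinib 2, 3 or 5 (adjusted p up to 0.0962 and 0.121). The mitochondrial iron importers Slc25a28 and Slc25a37 lay below 0, at -0.29 ± 0.14 (0.145) and -0.55 ± 0.20 (0.0606).

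Among the proteins that receive the clusters, 10 of 17 were higher and 0 lower, with a median of 0.85. The share of all genes was 10.4% higher and 10.5% lower. Ndufs1, a complex I subunit, went from 70.2 ± 19.4 to 163 ± 61.4 rescaled CPM with no overlap, by 1.17 ± 0.26 (limma adjusted p = 0.0162), and was called in 10 of 10 fits without 1 library. Fech, which makes haem, rose by 0.64 ± 0.16 (0.0213) and was lost without placebo 1 or 2 or osimertinib 3 or 5 (up to 0.0636). Fech did not pass in the deposited CPM (0.0642). The enzymes that pass electrons to ubiquinone had 5 of 10 tested higher, 0 lower and a median of 0.65. Those called were Etfdh, Sdha, Sdhb, Sdhc and Sdhd, of which Etfdh and Sdhb are also clients. The other 5 were not called, and the lowest log2 fold change among them was -0.64. The complex II subunits Sdha, Sdhc and Sdhd rose by 1.25 ± 0.28 (0.017), 1.07 ± 0.26 (0.0216) and 1.12 ± 0.31 (0.0294). Sdha was called in all 10 fits without 1 library, and Sdhc and Sdhd were lost without placebo 1 or 2 or osimertinib 3 or 5 (up to 0.0628 and 0.0813).

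Outside the mitochondrial machinery, 4 further lists were counted, to be read beside the 10.4% of all genes called higher and 10.5% lower. The cytosolic assembly list had 1 of 9 higher and 1 lower, with a median of 0.20. Ciao1, a subunit of the complex that targets clusters to cytosolic and nuclear proteins, rose by 0.45 ± 0.13 (limma adjusted p = 0.0369), lost without placebo 1, 2 or 5 or osimertinib 3 or 5 (up to 0.0979). Ndor1, the reductase that feeds electrons to this system, fell by 0.59 on the log2 scale with no overlap, from 29.4 ± 2.92 to 19.5 ± 3.57 rescaled CPM (0.0181), and was lost without osimertinib 3 (0.0547). Mms19, a further targeting subunit, was at -0.33 ± 0.13 (0.0742). Neither Ciao1 nor Ndor1 passed in the deposited CPM (0.159 and 0.623). The mevalonate pathway, which supplies the isoprenoid tail, had 0 of 8 called by limma, 0 at an unadjusted p under 0.05 and a median of 0.12, with its lowest p for Fdps at 0.36 ± 0.17 (adjusted p = 0.137), then Idi1 at 0.38 ± 0.22 and Mvd at -0.29 ± 0.26. Among 8 other kinase-like and quinone genes 1 was called higher by limma. This was Hpdl (adjusted p = 0.0384), an enzyme proposed to make the ring precursor, which was at 0.703 ± 0.326 and 1.54 ± 0.430 rescaled CPM, and it reached 1 CPM in 1 placebo and 5 osimertinib libraries, so that it passed the filter mainly through osimertinib. Hpdl did not pass in the deposited CPM (limma adjusted p = 0.0589) and was called in 4 of 10 fits without 1 library (up to 0.102). Adck5 and Parl were at -0.49 ± 0.17 (0.0571) and 0.47 ± 0.18 (0.0737). Of 8 genes of cellular iron handling Steap3, a ferrireductase, rose by 0.61 ± 0.15 (0.0201), lost without placebo 2 or osimertinib 3 or 5 (up to 0.0555). Steap3 did not pass in the deposited CPM (0.0631). Ferritin heavy chain Fth1 and the transferrin receptor Tfrc were at 0.61 ± 0.22 (0.0689) and 0.44 ± 0.16 (0.0699).

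**Figure D5:**
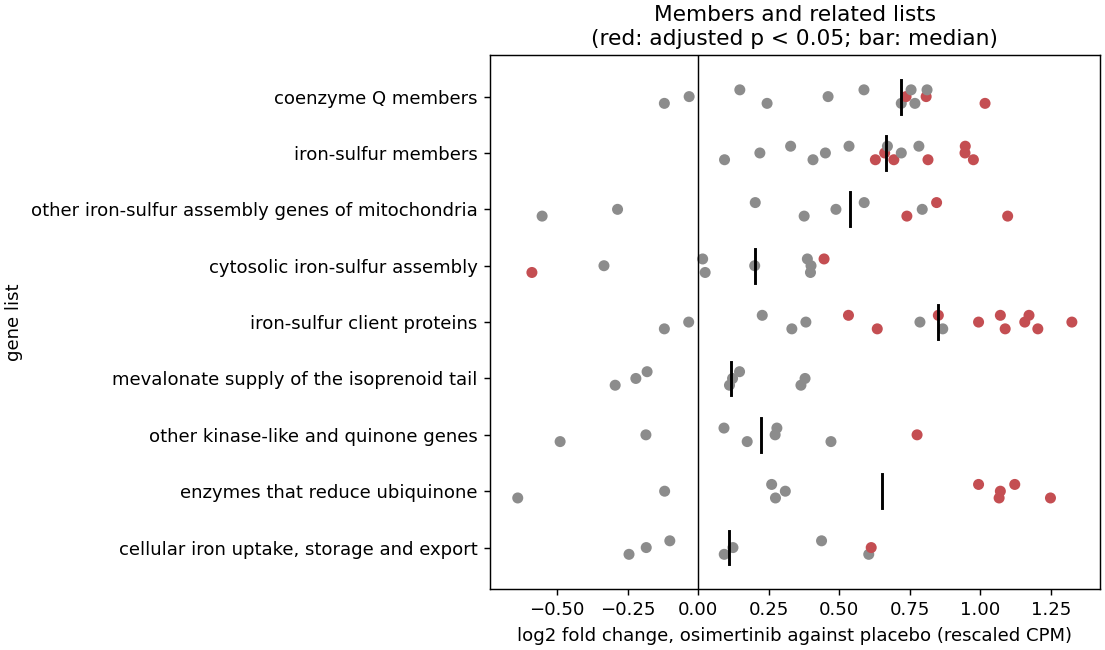
Log2 fold change (x axis, rescaled CPM, osimertinib against placebo) of each tested gene of the 2 pathways and of 7 related lists, red where the adjusted p was under 0.05, with a bar at each list's median. The medians are highest for iron-sulfur clients (0.85), both pathways (0.72 and 0.67) and the enzymes that reduce ubiquinone (0.65), and lowest for iron uptake (0.11) and the mevalonate list (0.12).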

How the data were processed

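The deposited table holds CPM for each gene in each library. The authors scaled every column to a sum of 1000000 and applied no factor between libraries. Per the design text, reads of strand-specific libraries were aligned to GRCm38 with STAR and quantified with RSEM in the nf-core pipeline. The submitters' processing notes name cutadapt 1.9, HISAT2 2.0.4, StringTie 1.3.4d, DESeq2 and the human build hg38 instead. The identifiers are mouse genes. Which set made the table was not settled, and it could change how reads of similar genes were divided.

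Groups came from the titles. Depth was read from the value of 1 read. Between 90.74% and 93.35% of low values were whole reads to 0.01 read, too few for a count test, so limma (3.58.1, R 4.3.3) with an intensity trend was run on log2(CPM + 0.5), two-sided, on 12350 genes with 1 CPM in 5 or more libraries. CPM were first divided by median-ratio size factors, and the deposited CPM were fitted beside them. Fold changes are on this log2 scale, which understates low genes. The prior had 4.45 degrees of freedom, and 72.9 in the deposited CPM, where it was infinite in 8 of 10 fits without 1 library, so that a gene's own spread did not count there. The fit was tested on simulated data. The closest pair of libraries differed by 23.9 in chi-square per degree of freedom, well beyond sampling noise.

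Coordinates are GENCODE M21 on GRCm38, and promoters RefSeq on GRCm38.p6. Members, lists and the naming rule were chosen with earlier results of these data known. The rule names every member, gives all libraries for the 4 lowest p and 2 lowest fold changes of each pathway and for the related pairs, and names up to 3 genes of lowest p of each related list plus 4 genes fixed by name, among them Hspa9 and Ndufab1. The counts cover whole lists, of which 3 genes are not reported here. Members that passed but fell outside it (Fdx1, Hscb and Glrx5) are also given in full, and Fdx2, Slc25a28 and Slc25a37 were named after their values were seen. Settings varied were the scaling, pseudocount, filter, variance model, library weights, voom on estimated reads, the replicate number as a block and each library in turn, and, after the data were seen, 2 marker scores as covariates and the deposited CPM without placebo library 5.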

Additional observations from a re-analysis of the deposited data

Results flagged for a closer look

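Of 68 groups of 5 values checked, the members' log2 levels and the ratios of related members in each group, 1 held a library far from the others. The log2 ratio of Coq10a to Coq10b was 2.027 in placebo library 1, with the next placebo library at 2.822, and this gap took up 0.738 of the group's whole range. About 1 group in 20 is marked in this way by chance. Placebo library 1 is also the library with the lowest cardiomyocyte marker sum, and without it the groups still did not overlap and differed by 0.70 (exact p = 0.0159, adjusted 0.0794).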

How the results depend on the processing

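Under every setting run, the iron-sulfur median stayed above 0, and so did the ubiquinone median except with the cardiomyocyte marker score as covariate, where they were 0.09301 and -0.0263. The count of genes called, 2574, became 833 in the deposited CPM, 625 in CPM without mitochondrial and haemoglobin genes, 1263 with no filter, 875 in the deposited CPM without placebo library 5, 4847 with the atrial score and 85 with the cardiomyocyte score as covariate. Of ubiquinone genes, 3 in the fit described, these settings called 7, 1, 0, 1, 9 and 0, quantile normalization 5, array weights 5 and the replicate block 7 (9.91%, 12.9% and 12.9% of all genes higher, against 10.4% in the fit described). Of iron-sulfur genes, 7 in that fit, CPM without mitochondrial and haemoglobin genes called 3, no filter 1, the deposited CPM without placebo library 5 called 2, the atrial score 15, the cardiomyocyte score 0 and the replicate block 11. With no filter, where 21622 genes were tested, 9 ubiquinone genes still had an unadjusted limma p under 0.05. Leaving out 1 library gave 517 to 2789 genes, 0 to 8 ubiquinone and 0 to 12 iron-sulfur genes. Some low fold changes turned sign, Coq8b (0.2294) and Coq10b (0.1431) in the deposited CPM, Coq8b at 0.06922 in the deposited CPM without placebo library 5 and between -0.1019 and 0.03783 without 1 library (0.03673 without placebo 5, 0.03783 without osimertinib 2). With the cardiomyocyte score Pdss1 (-0.2361), Coq2 (-0.05605), Coq6 (-0.04332), Coq7 (-0.1199), Coq10a (-0.0263), Isca2 (-0.1428), Bola1 (-0.2239), Bola3 (-0.1023) and Abcb8 (-0.1272) did so. With a pseudocount of 2 the ratios Coq8a to Coq8b (0.8277) and Isca1 to Isca2 (0.4258) passed the exact test. Without 1 library the ratios ranged from 0.6962 to 0.9751 (Coq8a to Coq8b), 0.6992 to 1.003 (Coq10a to Coq10b), 0.3328 to 0.5264 (Isca1 to Isca2), -0.3914 to -0.2496 (Bola1 to Bola3) and -0.1887 to -0.01526 (Abcb8 to Abcb10). Libraries with the same number did not deviate together in every pair (correlations 0.428, 0.245, 0.464, -0.339 and -0.162 for numbers 1 to 5). The library of the same number was the best match of the placebo library for numbers 1, 2 and 3. For the osimertinib library it was so for numbers 1 and 3. Whether the numbers pair the libraries was thus not settled. With the replicate block the Coq10a to Coq10b difference stayed 0.8884. The exact sign-flip test of 5 pairs cannot give a p under 0.0625 and so says nothing about this call. The cause of these changes was not tested. Genes near 1 CPM, such as Nubpl at 9 to 102 estimated reads, are limited by depth.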
